A study of Mus musculus with 2 samples.

Results

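Primary chondrocytes high in an average of Trf, Fam43a, Klf5, Fzd9 and Foxc2 were examined in a single-cell RNA-seq library of costal cartilage-derived stem cells (CDSCs). Most of them were high in some of these genes and not in all. Costal cartilage was taken from the ribs of C57BL/6J mice in the first week after birth, from animals that carried CD45.1 or ZsGreen. It was digested with type II collagenase, and CD45-CD51+ cells were sorted. There were 2 samples, 1 library of these freshly sorted primary cells and 1 library of cultured CDSCs at passages 2 to 3, and no label separated the animals within a library. The labels name bone marrow as the tissue of both libraries, although the cells came from rib cartilage.

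The cells described here were chosen by their measured levels. Primary barcodes with at least 500 detected genes, at least 5000 UMIs, at most 10% mitochondrial UMIs and Col1a1 under 0.3% of UMIs were kept, which left 10829 of 11896 barcodes, out of 22694 barcodes in both libraries. A further 937 had failed on genes, UMIs or mitochondrial share and 130 on Col1a1. In each kept barcode the share of UMIs of each of the 5 score genes was divided by that gene's mean share over all kept barcodes, and the 5 quotients were averaged into a score. The 1083 barcodes in the top 10% are called Trf-score cells below and are compared with the other 9746, called the rest. With 1 library there was no replicate check, so no p-value is given. All intervals are exact 95% intervals that cover counting error only.

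Chondrocytes are the cells of cartilage, which secrete and maintain a matrix of type II collagen and the proteoglycan aggrecan. In a growing rib, resting, dividing and hypertrophic chondrocytes occupy successive zones, and cells at a cartilage surface secrete lubricating proteins such as lubricin, encoded by Prg4. Of the score genes, Trf encodes transferrin, the carrier of iron in plasma. Fzd9 encodes a Frizzled receptor for Wnt ligands, Klf5 a zinc-finger transcription factor of the Krüppel-like family, and Foxc2 a forkhead transcription factor with a known role in the axial skeleton. In build GRCm38 with the GENCODE M21 annotation these protein-coding genes lie at chr9:103204001-103230444 (Trf), chr16:30599723-30602797 (Fam43a), chr14:99298691-99315036 (Klf5), chr5:135248938-135251230 (Fzd9) and chr8:121116171-121118895 (Foxc2).

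The kept primary barcodes had a median of 10455 UMIs and 3012 genes. The 2 libraries shared 32 barcode sequences, and 3 of the 1083 Trf-score cells, or 0.277%, carried one of these. Trf-score cells were shallower than the rest, with a median of 9691 against 10584 UMIs. Their share was 9.60% in the shallowest decile of barcodes by UMIs, 13.9% in the fifth and 3.69% in the deepest. At an equal depth of 5000 UMIs the median number of genes was 1881 in Trf-score cells and 1927 in the rest. The median mitochondrial share was 1.75% and 1.83%.

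**Figure D1:**
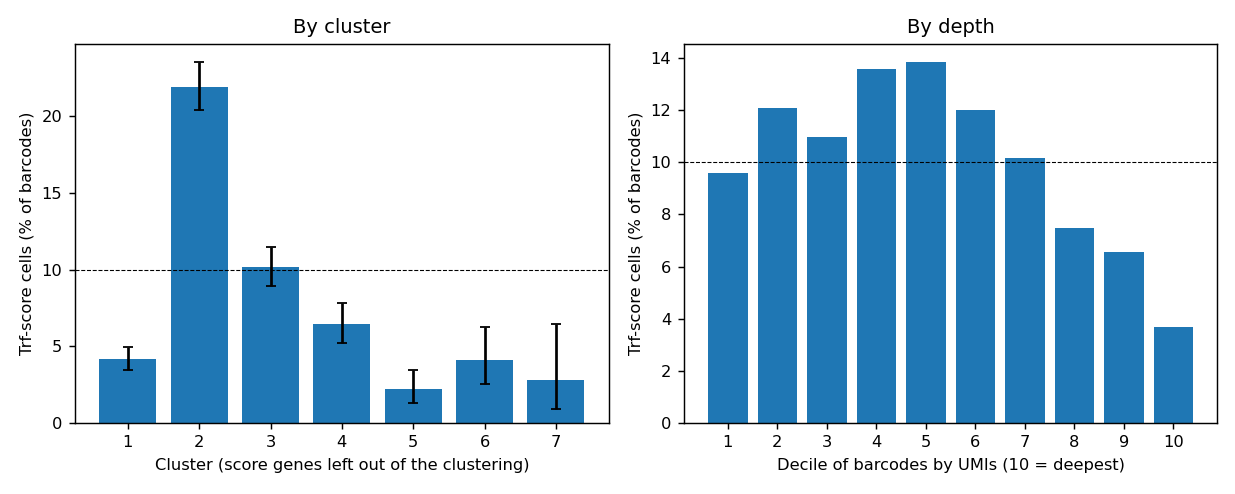
Share of kept primary barcodes that were Trf-score cells, in percent, by cluster (left, with exact 95% intervals) and by decile of barcodes ordered by UMIs (right). The dashed line marks 10%; the share was 21.9% in cluster 2 and 3.69% in the deepest decile.

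Trf-score cells were chondrocytes by their markers. Col2a1, which encodes type II collagen, was detected in all 1083, at 55751 counts per 1000000 UMIs (CPM) against 53712 in the rest. Acan, which encodes aggrecan, stood at 1944 and 1978 CPM. All 17 genes of the chondrocyte list could be compared, none differed 1.5-fold or more, and their median log2 ratio was 0.05. The 9 genes of the endothelial list summed to 5.82 CPM in Trf-score cells and 12.6 in the rest. The 10 haematopoietic genes summed to 7.65 and 15.5, and the 6 erythroid genes to 9.91 and 4.76. These haematopoietic and erythroid sums rested in part on few barcodes. In the rest, Cma1, Mcpt4 and Cpa3 of the haematopoietic list had 97.8%, 98.0% and 97.1% of their UMIs from 1 barcode each. Hba-a1, Hba-a2 and Hbb-bs of the erythroid list had UMIs in 3, 5 and 6 Trf-score cells. At least 3 genes of the endothelial list were detected in 1 Trf-score cell (0.0923%, against 0.174% of the rest). For the haematopoietic list it was 2 (0.185% against 0.103%) and for the erythroid list 2 (0.185% against 0.0410%). The shares were 1.57% and 2.43% for the mural list, 1.85% and 4.37% for the tenocyte list, and 35.8% and 46.7% for the perichondrial fibroblast list. Col1a2 of the last list had UMIs in 984 Trf-score cells. The ZsGreen transcript stood at 491 and 442 CPM. Without the barcodes that carried 3 endothelial or 3 haematopoietic genes, the counts of genes given below were 9 higher and 151 lower.

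The score separated a range of one continuous measure and not a distinct class. Trf-score cells had a median score of 2.53 and a highest score of 10.9, and the rest had a median of 0.728. The boundary lay at 2.03. The last barcode inside held 21 Trf, 7 Fzd9 and 1 Klf5 UMIs of 16459 and none of the other score genes, and the first outside held 2 Trf, 1 Klf5, 2 Fzd9 and 3 Foxc2 UMIs of 7922. Within 10% of the boundary lay 262 Trf-score cells, or 24.2% of them, and 328 barcodes of the rest.

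The levels of the score genes follow from the choice and are given as a description. Trf stood at 669 CPM in Trf-score cells (654 to 684) and 114 in the rest (112 to 116). Fam43a stood at 217 and 43.3 CPM, and Foxc2 at 145 and 48.3. The contrast was smaller for Klf5, at 198 and 99.8 CPM, and for Fzd9, at 393 and 193. Per barcode, the median was 355 CPM for Trf and 350 for Fzd9 in Trf-score cells. At full depth, 75.2% of these cells held a UMI of Trf, 60.4% of Fam43a, 75.9% of Klf5, 68.5% of Foxc2 and 92.7% of Fzd9. At 5000 UMIs, Trf was detected in 67.3% of Trf-score cells and 30.8% of the rest, and Fzd9 in 80.1% and 54.0%.

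Most Trf-score cells were high in some score genes and not in all. All 5 score genes were detected in 227 cells (20.96%), 4 in 443, 3 in 311, 2 in 94 and 1 in 8. The gene with the largest quotient was Fam43a in 376 cells, Trf in 372, Foxc2 in 198, Klf5 in 91 and Fzd9 in 46. Trf contributed 28.9% of the summed score, Fam43a 26.4%, Foxc2 18.3%, Fzd9 13.4% and Klf5 12.98%.

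Over all kept barcodes at 5000 UMIs, a score gene was detected slightly more often in barcodes that held another one. Fzd9 was detected in 64.9% of barcodes with Trf (63.4 to 66.4) and in 52.3% of those without (51.1 to 53.4). Foxc2 was detected in 28.1% of barcodes with Fam43a and 22.1% of those without, the largest ratio of the 10 pairs at 1.28. For Trf with Fam43a, Trf with Foxc2 and Fam43a with Klf5 the intervals overlapped, with ratios of 1.08, 1.07 and 1.04. The Spearman correlations of the 10 pairs across 10829 barcodes of 1 library lay between 0.01 and 0.15 and are too weak to be a finding.

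When a score gene was left out of the score, its level in the 1083 barcodes then chosen could be read without its own UMIs in that choice of barcodes. Fzd9 was 1.56-fold higher in the barcodes chosen by the other 4 genes (1.504 to 1.61), at 312 against 200 CPM. Foxc2 was 1.35-fold higher (1.26 to 1.45), Trf 1.33-fold (1.27 to 1.38) and Klf5 1.27-fold (1.20 to 1.34). Fam43a was 1.16-fold higher (1.08 to 1.25), and at 5000 UMIs it was detected in 19.6% of the chosen barcodes (17.3 to 22.1) and 18.9% of the others (18.2 to 19.7). All 5 ratios were above 1. They lay below those of the full score, whose choice used each gene's own UMIs, so that order is no result. The 5 genes had been chosen together with earlier results of these data known, so ratios above 1 are a description and no independent check.

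Barcodes that carried markers of other cell types were examined for free RNA, but they held too much chondrocyte RNA to gauge it. In the 30 kept barcodes with at least 3 endothelial or 3 haematopoietic genes, with a median of 14250 UMIs, Trf was detected in 30.0% at 5000 UMIs (14.7 to 49.4) and Fzd9 in 43.3% (25.5 to 62.6). In the 130 barcodes set aside for Col1a1, with a median of 7268 UMIs, the shares were 6.92% (3.21 to 12.7) and 26.2% (18.8 to 34.6). Col2a1 was detected in 100% and 99.2% of these 2 sets, at 39163 and 17172 CPM, and Acan stood at 1261 and 859 CPM. The rest held 53712 Col2a1 and 1978 Acan CPM. Neither set was free of chondrocyte RNA, so score-gene UMIs in them cannot be assigned to free RNA. Of the 30 barcodes, 3 were themselves Trf-score cells. The share of the rest with Trf, 30.8%, lay inside the interval of the 30 barcodes and above that of the 130.

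In the cultured library each score gene was at a lower CPM than in the kept primary barcodes together. Fzd9 stood at 2.35 CPM in the 4543 cultured barcodes that passed the same gene, UMI and mitochondrial limits and at 210 in the primary barcodes. Trf stood at 29.6 and 162, Fam43a at 29.4 and 58.4, Foxc2 at 12.03 and 56.6, and Klf5 at 81.3 and 108. At 5000 UMIs, Fzd9 was detected in 1.25% of cultured barcodes and 56.6% of primary ones, and Klf5 in 29.6% and 37.9%. Culture and library cannot be told apart here, and 6255 of the 10798 cultured barcodes failed the limits.

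Few genes outside the score were higher in Trf-score cells. Of 7625 genes with at least 10 CPM over all kept barcodes, 9 (0.118%) had a level in Trf-score cells 1.5 or more times that in the rest, and for 150 (1.97%) the rest was higher by that factor. Cytl1, which encodes a secreted cytokine-like protein of cartilage, was the most abundant of the 9, at 1233 CPM in Trf-score cells (1213 to 1254) and 635 in the rest (631 to 640), a log2 ratio of 0.96. The median log2 ratio of all genes compared was -0.05, with 35.3% above 0. The rest supplied 91.4% of the UMIs, so a gene low in Trf-score cells could pass the 10 CPM limit through the rest alone. At a minimum of 1 CPM, 73 of 11790 genes were higher and 950 lower by 1.5-fold or more, whatever their intervals. Rarer genes were thus more often lower, and the counts of list genes under the limit are to be read beside that. With the limit set instead on the mean of the CPM of both groups, a choice made after seeing the data, as were the counts of list genes under the limit, 13 of 7501 genes (0.173%) were higher and 118 (1.57%) lower, and these held all 9 of the higher genes. The 4 added, Tspan8, Lbhd2, Dusp15 and the transcription factor Etv4, were named after their values were seen and had log2 ratios from 0.79 to 1.52.

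A further 7 of the 9 genes had log2 ratios from 0.59 to 0.82. They were Fxyd3, a regulator of the sodium pump, at 34.3 against 19.4 CPM, Traf4, a TRAF-family adaptor, at 40.1 against 22.9, and Pparg, a nuclear receptor of adipogenesis, at 21.1 against 12.7. F13a1, a transglutaminase subunit, stood at 91.1 and 59.5 CPM, the adhesion molecule Icam1 at 47.9 and 31.7, the G-protein subunit Gna14 at 106 and 70.4, and Hrct1 at 14.7 and 9.56. Ntm, Fbxl7, Irf2bpl, Efr3b and Wsb1 completed the 12 highest ratios above 20 CPM, with log2 ratios from 0.47 to 0.56, under the 1.5-fold limit.

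The set of higher genes rested on Trf. With a score that left out Trf, 5 genes were at least 1.5-fold higher and none of them was among the 9. They were Csdc2, Hes1, Nav3, Ntng2 and Samd5, named here after their values were seen, with log2 ratios from 0.64 to 0.71, and the log2 ratio of Cytl1 was then 0.31. Leaving out Fam43a gave 16 higher genes, 5 of them among the 9, with a Cytl1 log2 ratio of 1.27. Leaving out Klf5, Fzd9 or Foxc2 gave 6, 7 and 9 higher genes, of which 6, 6 and 7 were among the 9.

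Trf-score cells differed among themselves in Cytl1. Cytl1 stood at 2038 CPM in the 372 cells led by Trf (1993 to 2083), 1840 in those led by Fzd9, 1070 in those led by Foxc2 and 912 in those led by Klf5. In the 376 cells led by Fam43a it stood at 587 (564 to 610), below the 635 of the rest. Cells led by Fam43a had 62048 Col2a1 CPM and cells led by Trf 52395. The median depth was 10679.5 UMIs in cells led by Fam43a and 9660.5 in cells led by Trf, and the part of depth in this was not tested.

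**Figure D2:**
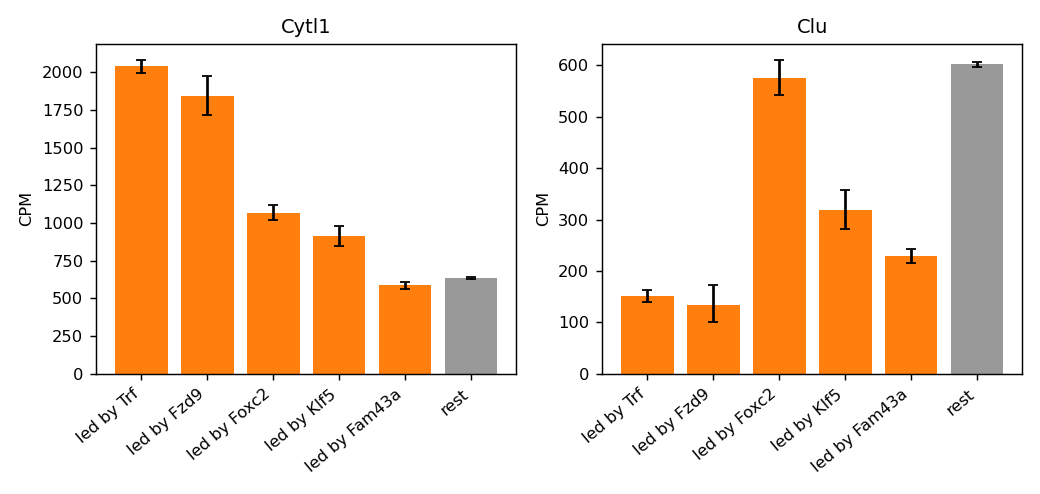
CPM of Cytl1 and Clu in Trf-score cells grouped by the score gene with the largest quotient (orange) and in the rest (grey), with exact 95% counting intervals from 1 library. Cytl1 reached 2038 in cells led by Trf and 587 in cells led by Fam43a, and Clu reached 575 in cells led by Foxc2 against 151 in cells led by Trf.

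The 250 bases before the start site are shown for Cytl1, the most abundant gene that was higher, and for Fam43a, the score gene whose cells lacked that difference. Both windows are RefSeq sequence of build GRCm38.p6 on the plus strand, at chr5:37735269-37735518 for Cytl1 and chr16:30599473-30599722 for Fam43a. Capitals mark GGGCGG (a GC box) and CACCC, the core of sites bound by Krüppel-like factors, on either strand.
Cytl1: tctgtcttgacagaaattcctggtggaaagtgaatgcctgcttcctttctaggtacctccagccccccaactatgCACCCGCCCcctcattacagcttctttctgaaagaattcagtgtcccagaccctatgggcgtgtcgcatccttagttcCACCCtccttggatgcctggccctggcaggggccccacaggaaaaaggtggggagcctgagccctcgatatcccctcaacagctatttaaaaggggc
Fam43a: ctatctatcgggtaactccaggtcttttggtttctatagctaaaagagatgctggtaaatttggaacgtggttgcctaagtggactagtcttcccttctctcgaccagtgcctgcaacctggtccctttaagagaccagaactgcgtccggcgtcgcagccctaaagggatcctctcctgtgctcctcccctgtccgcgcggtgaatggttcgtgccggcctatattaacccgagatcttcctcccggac
The Cytl1 window held 1 GC box and 2 CACCC matches, of which 1 overlapped the GC box, and the Fam43a window held neither motif. Of 32851 RefSeq promoter windows of the same 250-base length, 32.7% held GGGCGG and 52.0% held CACCC. Neither window held TAAACA, a forkhead core that 12.03% of windows held. A window for Fzd9 was in the same table, but the annotated gene reached into it and it is not printed.

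Genes of the cartilage surface were lower. Clu, which encodes the secreted chaperone clusterin, stood at 262 CPM in Trf-score cells (253 to 271) and 602 in the rest (598 to 606), a log2 ratio of -1.20. Prg4, which encodes lubricin, stood at 38.4 and 90.3 CPM, a log2 ratio of -1.23. Cilp2, a cartilage matrix protein, stood at 23.6 and 49.96, a log2 ratio of -1.08. These 3 were lower among the 4 genes of the superficial zone list that could be compared, while Erg, a transcription factor of articular cartilage, stood at 166 and 162. Of the 6 genes of that list under the limit, 5 were lower and none higher, beside 950 of 11790 lower over all genes at a minimum of 1 CPM. Per barcode, the median of Clu was 0 in Trf-score cells and 111 CPM in the rest, and Clu was detected in 46.1% and 63.5% of barcodes. Within Trf-score cells the low level of Clu was not shared by the 198 cells led by Foxc2, at 575 CPM (542 to 611).

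**Figure D3:**
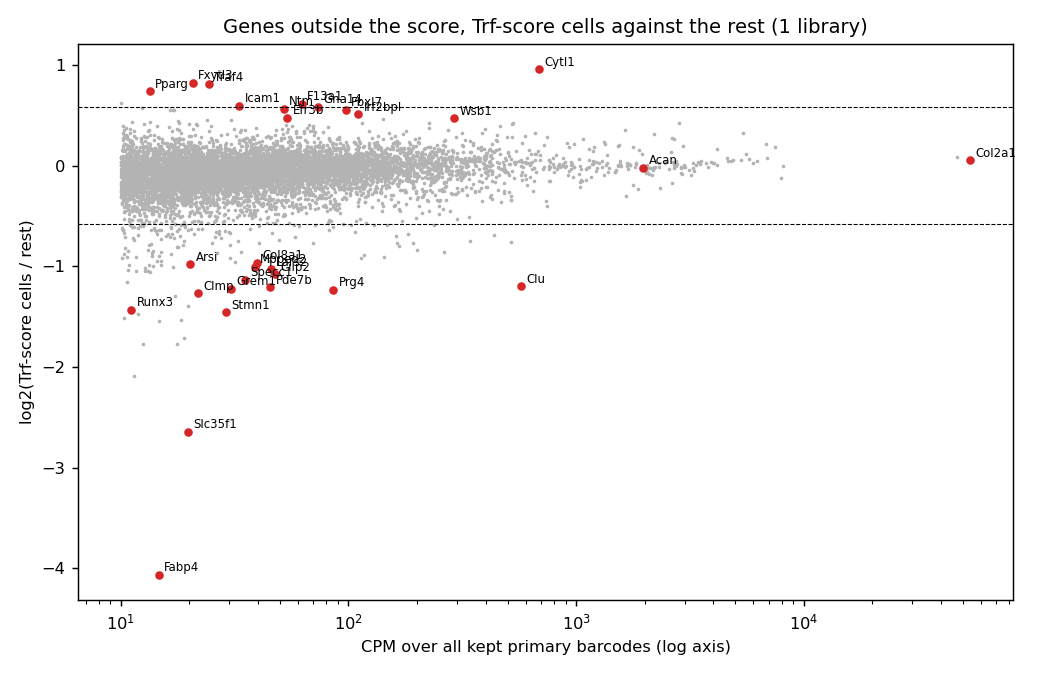
Log2 ratio of Trf-score cells over the rest against CPM over all kept primary barcodes (log axis), for genes outside the score with at least 10 CPM. Dashed lines mark 1.5-fold; of 7625 genes, 9 lay above the upper line and 150 below the lower one, with Cytl1 and Clu the most abundant named genes on either side.

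Some genes of later chondrocyte stages were also lower. Of 8 prehypertrophic and hypertrophic list genes compared, 4 were at least 1.5-fold lower and none higher, with a list median of -0.55. Among its 9 genes under the 10 CPM limit, 1 was higher beyond its counting interval and 3 were lower. The higher one was Ihh, the hedgehog ligand of prehypertrophic cells, at 6.95 against 4.03 CPM, a log2 ratio of 0.79 (0.43 to 1.13). It had UMIs in 41 Trf-score cells. The lower ones were Gli1 at 1.04 against 4.10 CPM, Wnt5b at 2.26 against 8.41 and Panx3 at 0.348 against 1.47. Over all genes at a minimum of 1 CPM, 73 of 11790 were higher and 950 lower. Runx3, a Runt-family transcription factor of chondrocyte maturation, stood at 4.35 CPM in Trf-score cells and 11.7 in the rest, a log2 ratio of -1.43. Runx2 of the same family stood at 70.2 and 111, and Mef2c, a transcription factor that drives hypertrophy, at 11.3 and 19.5. Ptch1, the hedgehog receptor, stood at 15.2 and 23.5. Pth1r, the receptor for parathyroid hormone-related protein, stood at 60.5 and 61.7, and Fgfr3, a receptor that restrains chondrocyte division, at 183 and 151. Of 7 resting zone genes, 1 was higher, Cytl1, and none lower, with Ucma, a secreted cartilage matrix protein, at 7832 and 6753 CPM in the 2 groups and a list median of 0.15. Of its 4 genes under the limit, 2 were lower. They were Pthlh, which encodes parathyroid hormone-related protein, at 1.83 against 3.81 CPM, a log2 ratio of -1.06 (-1.77 to -0.43), and Sfrp5, a secreted Wnt inhibitor, at 0.521 against 3.63, a log2 ratio of -2.80 (-4.26 to -1.67).

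Genes of mitosis were lower, and those of DNA replication with at least 10 CPM lay within 1.5-fold. All 5 G2/M genes compared were at least 1.5-fold lower, with a median log2 ratio of -1.44, among them Top2a, a topoisomerase, at 4.43 against 12.01 CPM, and Cdk1, the mitotic kinase, at 8.08 against 15.6. Of 16 G2/M genes under the 10 CPM limit, 15 were lower. Of 10 S-phase genes compared none differed 1.5-fold, and their median was -0.02. Of the 10 under the limit 4 were lower. Over all genes, 950 of 11790 were lower at a minimum of 1 CPM and 150 of 7625 at 10 CPM. At 5000 UMIs, 0.646% of Trf-score cells held at least 3 G2/M UMIs (0.26 to 1.33) and 2.07% of the rest (1.80 to 2.38), while 26.9% and 25.1% held at least 3 S-phase UMIs. Stmn1, which encodes a microtubule-destabilising protein, had the lowest ratio above 20 CPM, at 11.1 against 30.5, a log2 ratio of -1.46. Without the barcodes that held at least 5 G2/M UMIs, the log2 ratio of Stmn1 was -0.22, and those of the 5 G2/M genes were -0.76 for Top2a, -0.34 for Cdk1, -0.12 for Cenpa, 0.04 for Ube2c and 0.37 for Birc5. Dividing barcodes were deep, with a median of 17444 UMIs in the cluster led by mitosis genes, and with Trf-score cells chosen within 10 bins of UMIs the log2 ratio of Stmn1 was -0.67.

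The other genes with the lowest ratios above 20 CPM were Clmp, an adhesion molecule, at -1.27 on the log2 scale, Grem1, a secreted BMP antagonist, at -1.22, and Pde7b, a cyclic AMP phosphodiesterase, at -1.21. Specc1, Lars2, Mpped2, Arsi and Col8a1 lay between -1.13 and -0.97. Lower ratios were found for rarer genes, which were named after their values were seen. Fabp4, a fatty acid-binding protein, stood at 0.956 CPM in Trf-score cells and 16.0 in the rest, but its UMIs in the rest came from 158 barcodes and 14.9% of them from 1. Slc35f1 stood at 3.39 and 21.2 CPM, with UMIs in 21 Trf-score cells and 787 of the rest.

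Other genes of the pathways in which the score genes act mostly lay within 1.5-fold, as did most of the 7625 genes, of which 0.118% were higher and 1.97% lower. None of 15 iron-handling genes differed 1.5-fold, with a median log2 ratio of 0.02. Tfrc, the transferrin receptor, stood at 57.5 CPM in Trf-score cells and 46.7 in the rest, and the ferritin subunits Fth1 at 1725 and 1703 and Ftl1 at 1379 and 1357. Of 10 other Wnt receptors, Ror1 was lower, at 42.3 and 72.2, and none was higher, with Lrp5, a co-receptor, at 19.4 and 18.3. Of 6 canonical Wnt targets, Ccnd1, a cyclin of G1, and Lef1, a transcription factor of the pathway, were lower, at 5.74 against 11.3 and 16.4 against 26.8. None of 14 forkhead factors differed 1.5-fold, and Foxc1, the closest relative of Foxc2, stood at 74.3 and 76.1. None of 16 Klf and Sp factors differed 1.5-fold, with Klf4 at 788 and 757. Under the 10 CPM limit, 3 of 10 iron-handling, 1 of 9 Wnt receptor, 2 of 6 Wnt target and 2 of 18 forkhead genes were lower, 1 of 9 Wnt receptor genes was higher, and none of 9 Klf and Sp factors differed beyond its interval. At a minimum of 1 CPM, 950 of 11790 genes were lower and 73 higher, so these counts are not read as results about the pathways.

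Among signalling lists, 3 of 28 BMP and TGF-beta genes were lower and none higher. They were Grem1 at 13.7 and 32.1 CPM, the ligand Bmp7 at 7.65 and 14.3, and the antagonist Nog at 11.6 and 18.9. Of 9 hedgehog and PTHrP genes Ptch1 was lower, and the list median was -0.34. Of 7 IGF genes Igfbp4, a binding protein of IGF, was lower, at 6.52 and 12.2. None of 12 FGF genes differed 1.5-fold, with a median of 0.16, and Fgf2 stood at 72.0 and 57.6. Etv4, a transcription factor induced by FGF, lay under the limit at 14.1 against 8.14 CPM, a log2 ratio of 0.79 (0.54 to 1.03). Also under the limit, 7 of 10 BMP and TGF-beta genes were lower and none higher, while over all genes 950 of 11790 were lower at a minimum of 1 CPM. Junb, an AP-1 subunit, stood at 3693 and 2762, within a list of 14 immediate early genes of which none differed 1.5-fold.

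Stress and fibroblast genes were lower in part. Of 11 heat shock genes, the chaperones Hspa1b, Hspa1a and Hsph1 were lower, at 62.7 against 119, 151 against 273 and 99.6 against 174 CPM, while Hspa8 stood at 1278 and 1252. Col1a1, the collagen on which barcodes had been set aside, stood at 6.17 and 20.2 CPM, and Postn, a matrix protein of fibroblasts and perichondrium, at 5.48 and 18.8. Both led the cluster with the highest depth together with Fabp4, and this cluster held 1.85% of Trf-score cells and 4.80% of the rest. Of the 9 fibrillar and fibroblast collagens 2 were lower, Col1a1 and Col12a1. Of 12 adipogenic and lipid genes, 1 was higher, Pparg, and 1 lower, Fabp4, with a median of -0.03.

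The remaining lists held few genes past 1.5-fold, all of them lower. In the glycolysis list it was 1 of 14, the lactate transporter Slc16a3 at 6.78 and 10.5 CPM, and in the matrix protease and inhibitor list 1 of 12, the protease Adamts6 at 24.6 and 38.0. The perichondrial fibroblast list had 2 of 7, Postn and Col1a1, and the osteoblast list 2 of 2, Col1a1 and Runx2. None of 10 small leucine-rich proteoglycans, 16 secretory and ER stress genes, 9 hypoxia genes, 5 Wnt ligands and inhibitors or 3 Notch genes differed 1.5-fold. The list medians were -0.11, 0.02, -0.16, 0.01 and 0.31, the last with Hes1, a target of Notch, at a log2 ratio of 0.47. None of 2 tenocyte, 3 mural, 2 skeletal muscle or 1 Schwann cell genes compared differed 1.5-fold. Under the limit, 3 of 4 tenocyte, 3 of 9 endothelial and 3 of 10 haematopoietic genes were lower, and 3 of 6 erythroid genes were higher. Over all genes, 950 of 11790 were lower and 73 higher at a minimum of 1 CPM. The haematopoietic genes were Cma1, Mcpt4 and Cpa3, each with 97% or more of its UMIs in the rest from 1 barcode. The erythroid genes had UMIs in only 3 to 6 Trf-score cells, so these counts describe few barcodes.

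**Figure D4:**
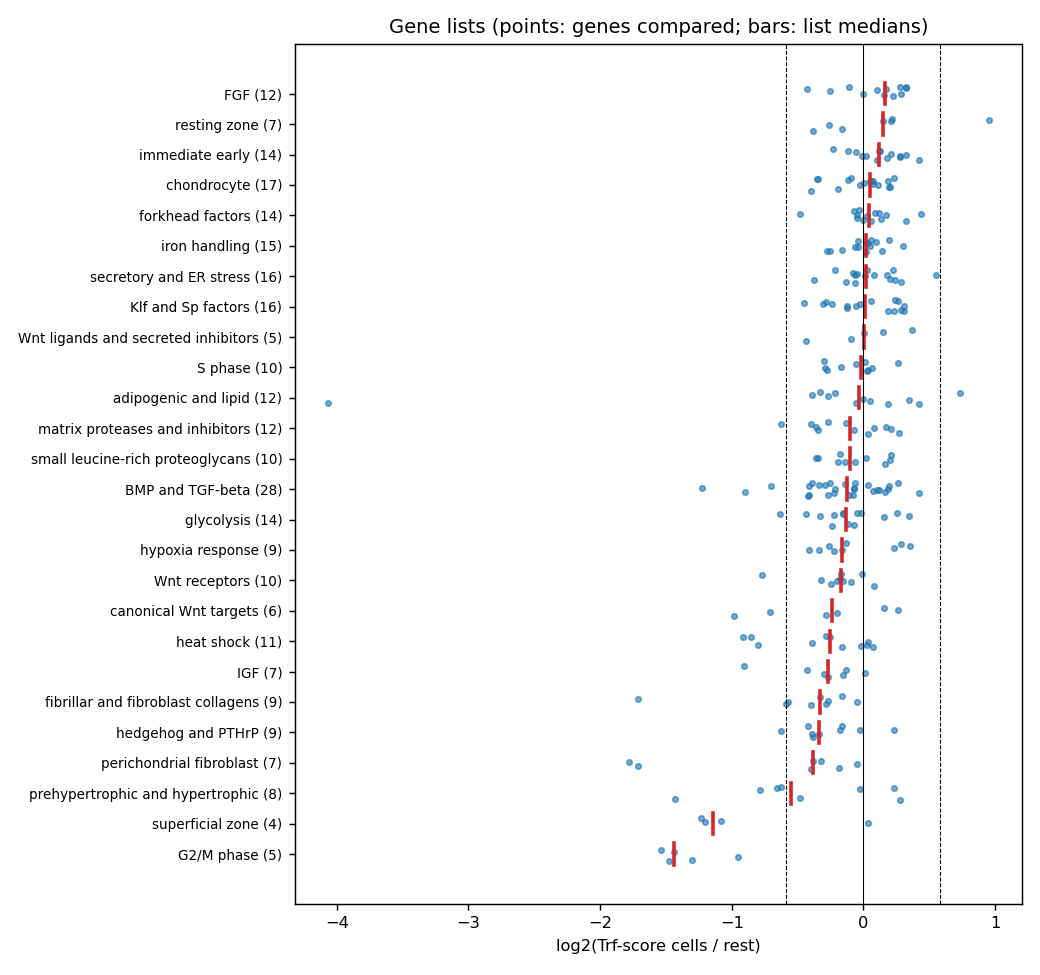
Log2 ratio of Trf-score cells over the rest for each gene with at least 10 CPM in the gene lists with 4 or more such genes. Points are genes (their vertical spread is for legibility), red bars are list medians and dashed lines mark 1.5-fold; the G2/M list had a median of -1.44, the superficial zone list -1.14 and the chondrocyte list 0.05.

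For Cytl1, Clu and Runx3 the differences ran along the whole score. From the highest to the lowest decile of barcodes by score, Cytl1 went from 1233 to 482 CPM, with 865 in the second decile. Clu went from 262 to 1127, with 326 in the second decile, and Runx3 from 4.35 to 28.0. Icam1 had no such order beyond the first decile, at 47.9 CPM there, 34.7 in the second, 38.4 in the sixth and 32.2 in the lowest. The summed superficial zone list went from 504 to 1557 CPM. The summed G2/M list had no order, at 59.5 in the highest decile, 256 in the seventh and 145 in the lowest. The lowest decile also had the lowest median depth, 8768 UMIs, and the lowest Col2a1 level, 46092 CPM.

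**Figure D5:**
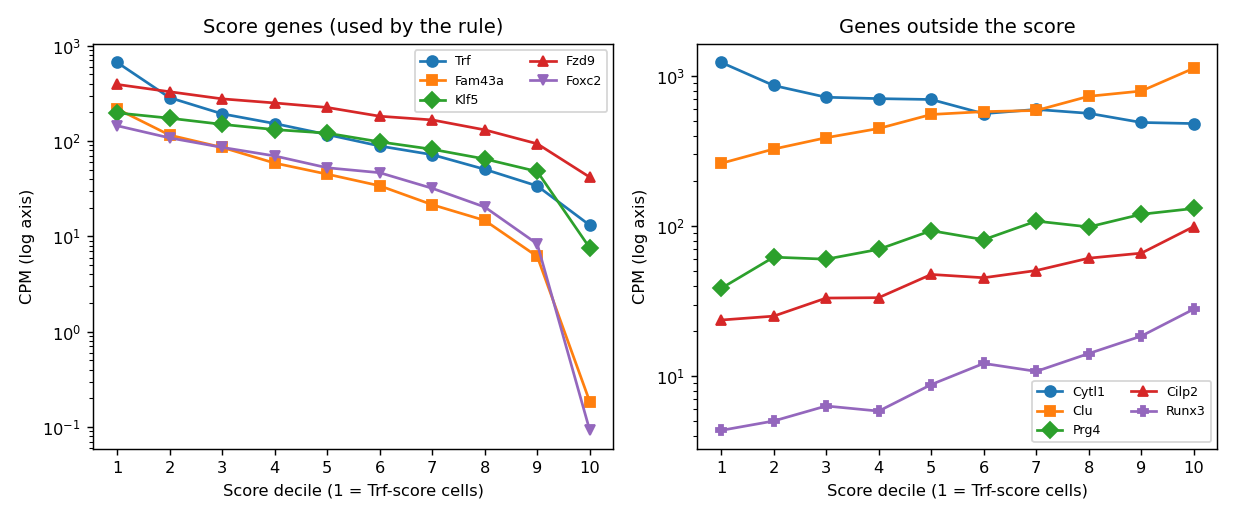
CPM (log axis) of the score genes (left) and of genes outside the score (right) in deciles of the kept primary barcodes ordered by score, with Trf-score cells as decile 1. The fall of the score genes follows from the order; Cytl1 went from 1233 to 482 and Clu from 262 to 1127.

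Clusters of the kept barcodes, made without the score genes, placed Trf-score cells unevenly. The 5 score genes were left out of the 2000 variable genes, and 7 clusters were found. Cluster 2, with 2721 barcodes, held 597 Trf-score cells, 55.1% of them against 21.8% of the rest, and 21.9% of its barcodes were Trf-score cells (20.4 to 23.5). Among genes with at least 50 CPM in cluster 2, those of largest fold against the other clusters were Trf, Cytl1, Fzd9, Foxc2, Klf5 and Gna14. The genes said to lead a cluster were taken under the same limit. Cytl1 stood at 1108 CPM in cluster 2 and 1076 in cluster 1, so its level was not particular to cluster 2. Clu stood at 182 CPM in cluster 2 and 1938 in cluster 1. Fam43a stood at 74.7 CPM in cluster 2 and 76.1 in cluster 4. The share was 10.2% in cluster 3, 6.42% in cluster 4, led by Grem1, Aoc2 and Nog, and 4.15% in cluster 1, led by Ppargc1a, Clu and Cilp2. It was lowest, 2.21%, in cluster 5, led by Slc35f1, Runx3 and Wnt5b. Among the 20 nearest neighbours of a Trf-score cell, 19.4% on average were Trf-score cells, against 8.86% for a barcode of the rest.

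Within each of the 4 clusters of at least 1000 barcodes, Cytl1 was higher and Clu lower in Trf-score cells, beyond the counting intervals. The Cytl1 log2 ratios were 0.71, 0.67, 0.71 and 1.18 in clusters 1 to 4, and those of Clu were -0.55, -0.55, -0.62 and -1.48. Prg4 had log2 ratios from -0.84 to -0.55 in clusters 1 to 3 and stood at 22.9 and 21.7 CPM in cluster 4. Within cluster 2 alone, 11 genes were at least 1.5-fold higher, 5 of them among the 9, and 33 lower, 17 of them among the 150. Several genes lower overall were not lower there, with log2 ratios of 0.61 for Runx3, 0.08 for Mef2c, 0.04 for Grem1, 0.30 for Bmp7, 0.31 for Ccnd1 and 0.10 for Stmn1. Runx3 was under the 10 CPM limit in cluster 2 and so not among the 11. All Trf-score cells together held 50 Runx3 UMIs, and no intervals are given for these ratios.

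The overlap with other groups chosen in the same way, as the top 10% by another score, differed by group. A score of Prg4, Clu and Cilp2 chose 32 Trf-score cells, 2.95% of them (2.03 to 4.15), against 10.8% of the rest. A score of Runx3, Wnt5b and Ptch1 chose 6.28% and 10.4%, and a score of Acta2, Grem1 and Eln 6.74% and 10.4%. A score of Cytl1, Wif1 and Prelp chose 13.3% of Trf-score cells (11.3 to 15.5) and 9.63% of the rest (9.06 to 10.2). Within that score only Cytl1 differed 1.5-fold. Wif1, a secreted Wnt inhibitor, stood at 455 and 410 CPM, and Prelp, a matrix proteoglycan, at 179 and 228. None of these 4 scores chose 72.9% of Trf-score cells or 64.5% of the rest.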

How the data were processed

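The labels and the study's methods name MobiDrop for the single-cell sequencing and then a 10x Chromium Controller with the 3' v3.1 kit for the libraries, and do not say how these go together. The authors aligned the reads to GRCm38. The authors deposited raw UMI counts per gene and barcode from Cell Ranger 7.0.0, with gene and barcode names. Their quality thresholds are not given in the sources used here. The score genes, lists and comparisons were chosen with earlier results of these data known.

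UMIs were summed over Trf-score cells and over the rest and divided by each group's total, as counts per 1000000 UMIs (CPM). Genes with at least 10 CPM over all kept barcodes were compared, without the score genes, at 1.5-fold, and counts under 3 were raised to 3. List genes under that limit were counted as higher or lower where the ratio was 1.5-fold or more and its interval left out 1. The share over all genes under the limit was not counted by this rule. Ratios carry exact conditional intervals, shares Clopper-Pearson and levels Poisson intervals, all at 95%. UMIs are not independent cultures or animals, and no test was made. Totals were 11506086 UMIs in Trf-score cells and 121610584 in the rest. Detection at equal depth used counts thinned without replacement to 5000 UMIs. Named were the 5 score genes, the 12 highest and 12 lowest ratios with at least 20 CPM outside mitochondrial and ribosomal protein genes, members of 35 gene lists with at least 10, and the genes of the other scores. Of the genes this rule named, 1 is not reported here. Clusters came from 2000 variable genes, 10 principal components, 20 neighbours (sklearn 1.9.0) and Leiden at resolution 0.5 (igraph 0.11.9, leidenalg 0.10.2). Scrublet, run in scanpy 1.11.5, called 0 doublets in the primary library and had not worked. Doublets therefore stayed in, and an alternative left out the 1118 barcodes of highest score, which were 5.45% of Trf-score cells and 10.5% of the rest. The contrast and the thinning were tested on simulated data. Gene starts and ends were checked in GENCODE M21. Python 3.11.15, numpy 2.4.6 and scipy 1.17.1 were used.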

Additional observations from a re-analysis of the deposited data

How the results depend on the processing

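No paired analysis was possible because each group of the study had 1 library. The count of genes higher or lower moved with the choice of cells and with the limits. The top 5% by score gave 16 higher and 286 lower genes, and the top 20% gave 94 lower. Scaling by the median of ratios gave 15 higher. Leaving Trf out of the score gave 5 higher, and leaving out Fam43a gave 16. A minimum of 1 CPM gave 73 higher and 950 lower, a minimum of 50 gave 3 and 28, and a 2-fold limit gave 0 and 34. Cluster 2 alone, chosen after seeing the data, gave 33 lower. In the other alternatives both counts stayed within 1.5 times the reported 9 and 150.

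Medians of lists that turned sign were small. That of the resting zone list was -0.00579 with counts thinned to 5000 UMIs and -0.0134 without Trf in the score, and that of the skeletal muscle list 0.0587 in thinned counts. In cluster 2 alone those of the BMP and TGF-beta, Wnt target, glycolysis and matrix protease lists were 0.0462, 0.00981, 0.0251 and 0.00207. Gene ratios that turned there, given without intervals, were 0.52 for Birc5, 0.30 for Bmp7, 0.31 for Ccnd1, 0.17 for Cenpa, 0.26 for Col1a1, 0.0427 for Grem1, 0.00981 for Lef1, 0.0755 for Mef2c, 0.61 for Runx3, which was under the 10 CPM limit there, and 0.10 for Stmn1. Without dividing barcodes Birc5 was at 0.37 and Ube2c at 0.0393, and without clusters 6 and 7, also chosen after seeing the data, Birc5 was at 0.13. The causes were not tested. The Cytl1 log2 ratio lay between 0.31 and 1.27 and that of Clu between -1.69 and -0.55 over all alternatives.

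Depth limits rare genes most: 3 UMIs came to 0.261 CPM in Trf-score cells and 0.0247 in the rest. With 1 primary library, differences between animals could not be measured.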
